A study of Mus musculus with 2 samples.

Results

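EGR1 peaks at CpG-rich promoters that serve a single protein-coding gene are described here. They were taken from a list of 12014 EGR1 peaks in mouse frontal cortex. A peak was included when its centre lay within 500 bp of the transcription start site (TSS) of a protein-coding transcript in GENCODE release M21 and its sequence on genome build mm10 had an observed-to-expected CpG ratio of 0.6 or more. Peaks with TSSs of protein-coding genes on opposite strands within 1 kb were left out. The rule was met by 4044 peaks, 33.7% of the list (95% Wilson interval 32.8% to 34.5%), and their centres lay within 500 bp of TSSs of 3769 genes. In ChIP-seq, an antibody against EGR1 pulls down cross-linked chromatin, and the recovered DNA is sequenced. The ChIP was made on micro-dissected frontal cortices of male F1 hybrid mice aged 6 weeks, from C57BL/6N fathers and 129SvEv mothers, with tissue of several mice pooled in each of 2 ChIP experiments. The mice were anesthetized with avertin before dissection, and the labels name no engineered allele or other treatment. The other sample was input DNA of frontal cortex of the same strain and age, and no processed values of it were analysed. The tissue held all cell types of the cortex, so a peak cannot be assigned to one of them.

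EGR1 is a zinc-finger transcription factor and the product of an immediate-early gene, which neurons transcribe within minutes of synaptic activity without new protein synthesis. Its zinc fingers read a GC-rich word that contains CpG dinucleotides. CpG islands are stretches of promoter DNA that have kept their CpGs because they are largely unmethylated, and most genes that are active in every cell, together with many neuronal and developmental genes, start in one. The CpG ratio compares the number of CpGs with the number that the C and G content alone would give.

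The 12 peaks with the lowest irreproducible discovery rate (IDR) are shown first, because all of them hold the EGR1 word. A low IDR marks a peak with a similar, high rank in both ChIP experiments, and the value is read like a q-value. Each site below is the mm10 sequence of 29 bases around the EGR1 motif nearest to the peak centre, written 5′ to 3′ on the strand that reads as the motif, with the motif in capitals. The motif was searched on both strands as GCGTGGGCG, the T form, or GCGGGGGCG, the G form.
Dynlt1b, chr17:6430125-6430153 (plus strand): ggtcccccgcGCGGGGGCGgagtgggcgt
Fbxo21, chr5:117976680-117976708 (plus strand): ggaccccctgGCGTGGGCGgggcgttccc
Shcbp1l, chr1:153425130-153425158 (minus strand): gcgagcacatGCGTGGGCGggaaatgaag
Grin1, chr2:25319165-25319193 (minus strand): gcgtcaggaaGCGGGGGCGgtgggagggg
Rapgef6, chr11:54522852-54522880 (minus strand): agacgcctgcGCGGGGGCGagactggccg
Clcc1, chr3:108653860-108653888 (minus strand): tggctgcgccGCGGGGGCGgaggcggggg
Ythdf3, chr3:16183127-16183155 (plus strand): gacgtgcacgGCGGGGGCGgagcccgagg
Map7d1, chr4:126256377-126256405 (minus strand): ctccatcactGCGGGGGCGgtcatccccc
Cacna1b, chr2:24763268-24763296 (minus strand): gcggactccgGCGGGGGCGgccgcggggg
Asph, chr4:9669119-9669147 (minus strand): gcagaggctgGCGTGGGCGgggccgaggc
Stxbp5l, chr16:37384974-37385002 (minus strand): acctcccacgGCGGGGGCGgagcctgaga
Jund, chr8:70698864-70698892 (plus strand): ccaatggcgaGCGGGGGCGgtgagctcat
Of these 12 sites, 9 had the G form and 3 the T form. The genes included Grin1, which encodes the obligatory subunit of NMDA receptors, Cacna1b, the pore of N-type calcium channels, Stxbp5l, a regulator of SNARE assembly, and Jund, a partner of FOS proteins in AP-1. Others encode housekeeping proteins such as Dynlt1b, a dynein light chain, Fbxo21, a substrate receptor of a ubiquitin ligase, and Ythdf3, a reader of methylated adenosine in RNA. The IDR of these peaks ran from 3.59e-09 at Dynlt1b to 6.53e-09 at Jund. Dynlt1b has near copies in its neighbourhood: at peaks of Dynlt1a and Dynlt1c the middle 31 bases occurred 2 times in the assembly, so reads may be shared among these genes. Among all 4044 peaks, 4025 (99.5%) had a middle 31-mer that occurred at a single place.

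A further set of sites is shown because their peaks had no exact motif but had a word that differed from it at 1 base. Rnf44, Rgl2 and Gpatch8 had the lowest IDRs of the peaks without the motif and were chosen for that after their values were seen. Arc encodes an activity-induced protein of synapses, and Npas4 an activity-induced transcription factor. The word nearest to the peak centre is in capitals. Such a word was also in 47.3% of the comparable promoters, described below, that had neither an EGR1 peak nor the motif. The words printed here are therefore not shown to be bound.
Rnf44, chr13:54694182-54694210 (minus strand): cgcccgtgttGAGGGGGCGtgtccagatt
Rgl2, chr17:33929480-33929508 (plus strand): ccctccccgcGAGTGGGCGggcataaggg
Gpatch8, chr11:102556204-102556232 (minus strand): cgcccggtggGCGTGGGAGggggcgtgga
Arc, chr15:74672642-74672670 (minus strand): ctggcgcggaGCCTGGGCGccgccaatgg
Npas4, chr19:4990001-4990029 (plus strand): ctcctgacagGCGTGGGGGgctcgttttt
Counted from 1 at the 5′ end of the 9-base word, the change was C2A of the G form at Rnf44, C2A of the T form at Rgl2, C8A of the T form at Gpatch8, G3C of the T form at Arc and C8G of the T form at Npas4. The IDRs of these peaks were 6.82e-09 at Rnf44, 7.96e-09 at Rgl2, 9.18e-09 at Gpatch8, 2.63e-07 at Arc and 6.17e-06 at Npas4.

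Whole peaks are shown for 2 promoters whose intervals met no annotated exon. Cacna1b has a pair of G forms next to each other, and Kat7 (a histone acetyltransferase) has a single T form. The plus strand of mm10 is printed, on which the motif of Cacna1b and Kat7 appears as its reverse complement, and motifs are in capitals.
Cacna1b, chr2:24763164-24763406 (plus strand): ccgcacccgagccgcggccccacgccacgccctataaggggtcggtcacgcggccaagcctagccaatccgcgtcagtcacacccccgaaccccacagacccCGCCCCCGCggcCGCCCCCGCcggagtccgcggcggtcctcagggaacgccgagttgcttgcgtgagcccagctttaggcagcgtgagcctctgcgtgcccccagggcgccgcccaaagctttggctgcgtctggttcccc
Kat7, chr11:95309629-95309819 (plus strand): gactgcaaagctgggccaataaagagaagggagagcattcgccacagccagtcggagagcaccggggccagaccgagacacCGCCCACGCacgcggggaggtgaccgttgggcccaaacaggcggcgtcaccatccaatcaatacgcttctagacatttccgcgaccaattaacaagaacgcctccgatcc
The IDR was 5.71e-09 at Cacna1b and 2.34e-08 at Kat7.

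Peaks at CpG-rich single-gene promoters had low IDRs in more cases than peaks at CpG-poor promoters or away from promoters. Their median IDR was 3.315e-05 (quartiles 3.1e-07 and 0.00153), and 71.7% had an IDR of 0.001 or less (70.3% to 73.0%, 2898 of 4044). At the 838 CpG-poor single-gene promoters the share was 61.7%, a difference of 9.97 percentage points (95% Newcombe interval 6.44 to 13.6). At the 5122 peaks over 2 kb from any coding TSS it was 48.3%, a difference of 23.4 percentage points (21.4 to 25.3). At the 1309 peaks between 500 bp and 2 kb from a coding TSS it was 58.4% (55.8% to 61.1%). At the 625 peaks between opposite-strand genes (bidirectional promoters) it was 71.8%. The difference from these was −0.18 percentage points (−3.84 to 3.72), an interval that included 0. All intervals in this text treat peaks or genes as independent and cover counting error only. The depth behind each peak is unknown, and both ChIP experiments were merged in the list, so no spread between replicates could be given.

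**Figure D1:**
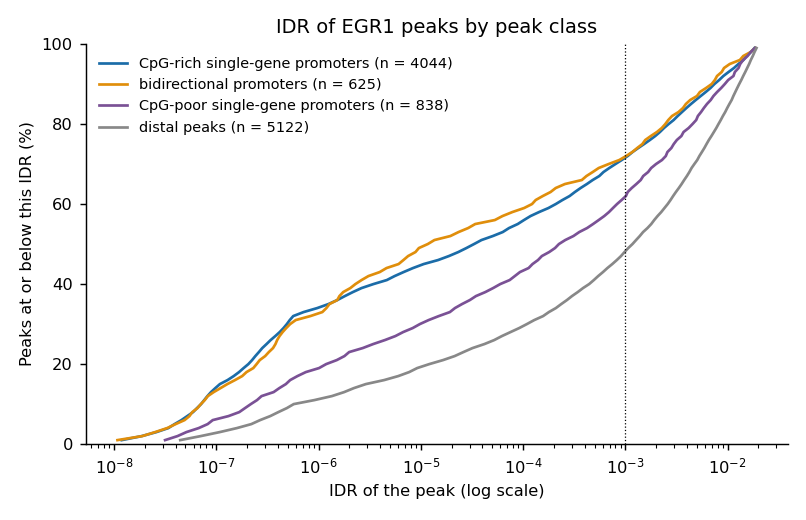
Cumulative share of peaks (vertical axis, %) at or below a given IDR (horizontal axis, log scale) for 4 classes of EGR1 peaks, with a dotted line at 0.001. The curves of CpG-rich single-gene promoters and bidirectional promoters reach 71.7% and 71.8% at that line, above CpG-poor promoters at 61.7% and distal peaks at 48.3%.

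The interval widths had a median of 250 bp (quartiles 203 and 264). The GC content had a median of 68.3%, with 21 CpGs per peak and a CpG ratio of 0.837. The CpG ratio was part of the rule, so these values describe the peaks and are no result. Just inside the distance limit were the peaks of Ssc4d (IDR 2.38e-06) and Myrip (0.00174), both 499.5 bp from the TSS, and just outside it those of Tenm3 (0.00816) and Wipi1 (1.16e-06), both at 500.5 bp. Just inside the CpG limit were Smad2 (ratio 0.6, IDR 8.18e-08) and Cic (0.60024, IDR 9.27e-05), and just outside it Adamtsl1 (0.59998, IDR 0.00241) and Tmppe (0.59992, IDR 1.06e-05).

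The EGR1 motif was found in the 250 bp around the peak centre of 1062 peaks, or 26.3% (24.9% to 27.6%). To ask how far this exceeds what such promoters hold anyway, 6020 promoters were used that met the same CpG and single-gene conditions around their TSS and had no EGR1 peak within 2 kb. In these, the 250 bp around the TSS held the motif in 3.75% of cases (3.30% to 4.26%). The difference was 22.5 percentage points (21.1 to 23.96). The windows had a median GC content of 68.0% at the peaks and 66.0% at the peak-free promoters. Their CpG ratio was 0.835 and 0.841, and the part of base content in the difference was not tested. The windows were also placed differently, centred on the peak in the former and on the TSS in the latter. The part of this placement in the difference was not tested either. In the 250 bp around the TSS, 577 of 3635 genes with a peak that met the same conditions held the motif. In windows centred on a peak, 950 of these genes held it. The count around the TSS for the peak-free promoters was 226 of 6020, so the difference was smaller when both were centred on the TSS. Of the windows around all 54327 coding TSSs, 4.09% held the motif. The windows 1 kb to either side of the same peaks held it in 0.890% and 0.742% of cases. The motif was in the peak and not in the flank in 1055 cases and in the flank and not the peak in 23, on the side with the weaker result (exact McNemar test, two-sided, log10 p = −277.0). The rule set a CpG limit for the peaks and none for the flanks, and the motif contains CpGs. The test therefore cannot separate the motif from the CpG rule, which favours the peak windows.

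The G form was the more frequent word and the T form the more selective one. The G form was in 851 peaks (21.04%) compared with 3.39% of peak-free promoters, and the T form in 229 peaks (5.66%) compared with 0.399%. The differences, from windows placed as above, were 17.7 percentage points (16.3 to 19.01) for the G form and 5.26 (4.57 to 6.03) for the T form. A single motif was in 974 peaks, 2 or more in 88 and 3 or more in 11. Among the last were Senp5 and Rnf165 with 4 each, and B3galnt2 and Cyp46a1 with 3 each, and 4 was not the highest number. Cyp46a1 encodes the enzyme that turns over cholesterol in the brain, and Senp5 a SUMO protease.

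Compared with 3 other classes of peaks, the motif was more frequent at CpG-rich single-gene promoters. It was in 20.5% of bidirectional promoter peaks (difference 5.78 percentage points, 2.19 to 9.06), 16.1% of CpG-poor promoter peaks (10.2, 7.19 to 12.9) and 8.04% of distal peaks (18.2, 16.7 to 19.8). The motif itself contains 2 CpGs, so its frequency is not independent of the CpG rule that separates the last 2 classes. Peaks between 500 bp and 2 kb from a coding TSS, of any CpG ratio, had the motif in 22.4% of cases (20.2% to 24.7%, 293 of 1309), and the difference from these was not tested. Across the limits of the rule the share did not drop. It was 27.7% of 101 peaks at 450 to 500 bp and 35.6% of 90 peaks at 500 to 550 bp, and 19.7% of 289 peaks with a CpG ratio of 0.60 to 0.65 and 21.8% of 220 peaks with 0.55 to 0.60. With the T form alone the difference from bidirectional promoters was −0.0973 percentage points (−2.31 to 1.65).

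The motif share fell with rising IDR. When the peaks were ordered by IDR and divided into 10 equal sets, the motif was in 60.1% of the set with the lowest IDR (55.3% to 64.8%, 243 of 404) and in 11.9% of the set with the highest IDR (9.06% to 15.4%). Between the 1011 peaks with the lowest and the 1011 with the highest IDR the difference was 30.8 percentage points (26.9 to 34.5, 466 and 155 peaks). The T form went from 15.6% to 1.73% and the G form from 46.3% to 10.1% between these sets. Even the set with the highest IDR lay above the 3.75% of peak-free promoters, whose windows were centred on the TSS and not on a peak. Interval width moved with IDR as well, with medians of 187, 174 and 187 bp in the 3 sets of lowest IDR and 250 to 260.5 bp in the others, and its part in the result was not tested. Read from the motif, 83.4% of peaks with it and 67.5% of peaks without it had an IDR of 0.001 or less (difference 15.96 percentage points, 13.1 to 18.7). Peaks with only the T form and only the G form did not differ in this share beyond the interval (83.9% and 83.1%, difference 0.813, −5.24 to 5.93), nor did peaks with 2 or more motifs and with 1 (85.2% and 83.3%, difference 1.96, −7.19 to 8.39).

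**Figure D2:**
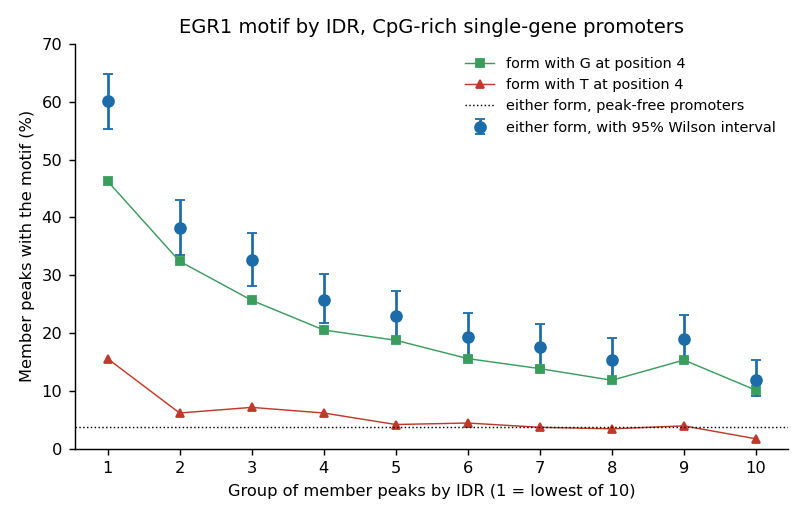
Share of CpG-rich single-gene promoter peaks with the EGR1 motif (vertical axis, %) in 10 groups of equal size by IDR (horizontal axis, 1 is the lowest), for either form with 95% Wilson intervals and for each form alone. The share falls from 60.1% to 11.9%, and the dotted line marks the 3.75% of peak-free promoters, whose windows were centred on the TSS.

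Most peaks without the exact motif held a word that differed from one of its forms at 1 base. This was so in 2494 of 2982 peaks (83.6%, 82.3% to 84.9%), in 8.55% and 8.89% of their flanks at 1 kb and in 47.3% of peak-free promoters without the motif. The flanks had no CpG limit, and the peak-free windows were centred on the TSS and not on a peak. The difference from the peak-free promoters was 36.3 percentage points (34.5 to 38.2). An IDR of 0.001 or less was seen in 70.6% of peaks with such a word and in 51.4% of the 488 peaks with neither (difference 19.2 percentage points, 14.4 to 23.9).

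The motif was concentrated within 50 bp of the peak centre, as the profile of motif sites by distance shows. The density there was 54.2 sites per 1000 peaks and 25-bp bin, compared with 1.77 at 500 to 1000 bp, a ratio of 30.6. The CpG rule applied to the intervals and not to these outer distances. The median distance between the motif and the centre was 26 bp, and 75.2% of 1167 sites lay within 50 bp. The sites were not centred on the intervals. Of the sites within 100 bp, 70.4% (67.6% to 73.0%) lay at lower coordinates than the centre, with a median of −17 bp (quartiles −38 and 4.88) along the chromosome. This was so for genes on either strand and for motifs on either strand, with medians from −7.25 to −26.2 bp in the 4 combinations, and in the same direction at CpG-poor promoters (−19.5 bp) and distal peaks (−16.5 bp). The displacement followed chromosome coordinates and not the direction of the genes. Positions of the intervals are therefore given with an uncertainty of this size.

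**Figure D3:**
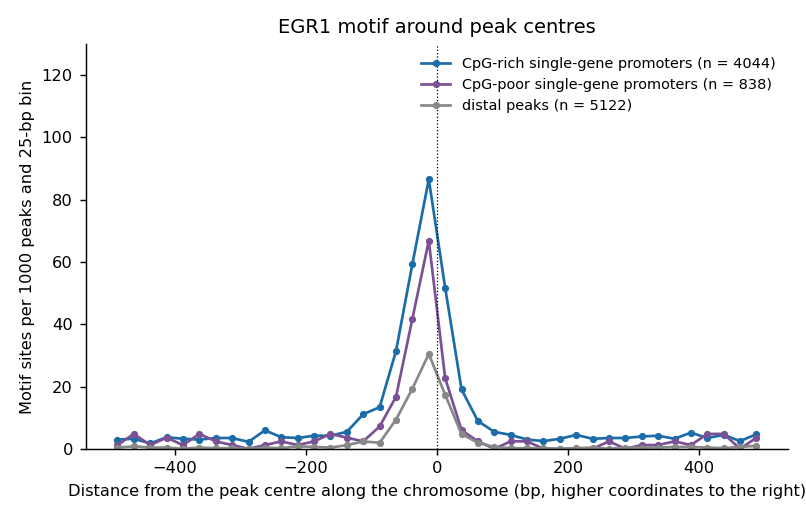
Number of EGR1 motif sites per 1000 peaks and 25-bp bin (vertical axis) by distance from the peak centre along the chromosome (horizontal axis, bp) for 3 peak classes. All 3 curves peak left of the centre, and the CpG-rich single-gene promoters reach 86.5 sites in the bin from −25 to 0 bp and 51.7 in the bin from 0 to 25 bp.

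The same density ratio, within 50 bp of the centre against 500 to 1000 bp away, was computed for every word at 1 base from the motif. The T form had a ratio of 45.2 (95% exact interval 32.0 to 65.4, 181 and 40 sites) and the G form 28.1 (24.3 to 32.7, 695 and 247 sites). At the fourth position, A gave 9.17 (6.24 to 13.4) and C 5.67 (4.26 to 7.52), although GCGCGGGCG has more CpGs than either form. Changes at the first and second positions of the T form kept ratios of 17.2 to 24, among them C2A with 24 (17.4 to 33.5) and G1C with 23.0 (15.1 to 35.8). Changes at the third position gave at most 5.83 with the T form (G3A) and 5.89 with the G form (G3A), and changes at the sixth position at most 6 (G6C) and 6.24 (G6A). At the eighth position of the T form, C8A had 20 (13.8 to 29.4) and C8T 17.2 (11.8 to 25.3), but C8G had 5.61 (3.82 to 8.15). G5A of the T form had a ratio of 30 from 24 and 8 sites, with an interval of 13.0 to 77.2. The words that lie in a run of G, C2G and C8G of the G form, had the lowest ratios, 2.15 (1.47 to 3.08) and 1.66 (1.06 to 2.50). Other EGR1 peaks lay within 1 kb of 18.8% of the peaks, so the outer distances hold some bound sites.

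The question was then turned around: given the sequence at a promoter, how often did its gene have one of the peaks. The 10705 genes whose TSS met the CpG and single-gene conditions in the 250 bp around it are called eligible here. A gene is called bound when one of the peaks lay near any of its TSSs. The word and the peak may therefore be at different TSSs of a gene. The genes not counted as bound include 1050 with another EGR1 peak within 2 kb that did not meet the rule. With the motif in that window, 577 of 880 genes (65.6%, 62.4% to 68.6%) had one of the peaks, and without it 31.1% of 9825 (30.2% to 32.0%), a difference of 34.4 percentage points (31.1 to 37.6). With the T form only, 99 of 126 genes (78.6%) were bound, and with the G form only, 469 of 743 (63.1%), a difference of 15.4 percentage points (6.80 to 22.6). The T form read backwards, GCGGGTGCG, has the same bases and CpGs and was bound in 46 of 104 genes (44.2%, 35.1% to 53.8%). With genes that held both words left out, the T form exceeded it by 35.4 percentage points (23.0 to 46.4). The bound share also varied with base content. In 5 groups of equal size by the GC content of the window it was 18.4%, 31.2%, 39.7%, 44.6% and 35.9% from the lowest to the highest, so the highest group, at 74% GC or more, lay below the one before it. In 5 such groups by the CpG ratio it was 22.05%, 32.5%, 38.1%, 38.3% and 38.8%. A peak was counted only with a CpG ratio of 0.6 or more over its own interval, so the rule itself lowers the share in the groups near that limit.

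The peaks lay more often upstream of the TSS than downstream. Their distance from it was limited to 500 bp by the rule, so closeness is no result. The median position of the centre was −29.5 bp (quartiles −100.1 and 63.5), 53.5% of the centres lay within 100 bp, and 57.3% of the intervals covered the TSS. The bin from −50 to 0 bp held the most peaks, 843 (20.8%). Of 4037 peaks not centred on the TSS, 2516 (62.3%, 60.8% to 63.8%) were upstream (exact binomial test, two-sided, p = 1.02e-55). The share was 59.2% for genes on the plus strand and 65.6% for genes on the minus strand. When each centre was moved by the median displacement of the motif, the shares became 66.1% and 60.6%, and 63.4% together. The motif nearest to the centre was upstream in 605 of 1062 peaks (57.0%, 54.0% to 59.9%; exact binomial test, two-sided, p = 6.25e-06).

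Upstream and downstream peaks differed in opposite directions in IDR and motif. An IDR of 0.001 or less was found in 75.6% of upstream and 65.1% of downstream peaks, a difference of 10.5 percentage points (7.63 to 13.5). The motif was found in 23.4% and 30.8%, a difference of −7.42 (−10.3 to −4.59). The same was seen by distance, where peaks within 100 bp had an IDR of 0.001 or less in 74.6% and the motif in 24.1%, and peaks at 100 to 500 bp in 68.3% and 28.7%. By annotation, 45.8% of the centres lay outside coding transcripts, 27.3% in a 5′UTR, 22.4% in an intron and 4.30% in a coding exon. The 174 peaks in coding exons had an IDR of 0.001 or less in 51.7% of cases, compared with 76.7% outside coding transcripts.

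**Figure D4:**
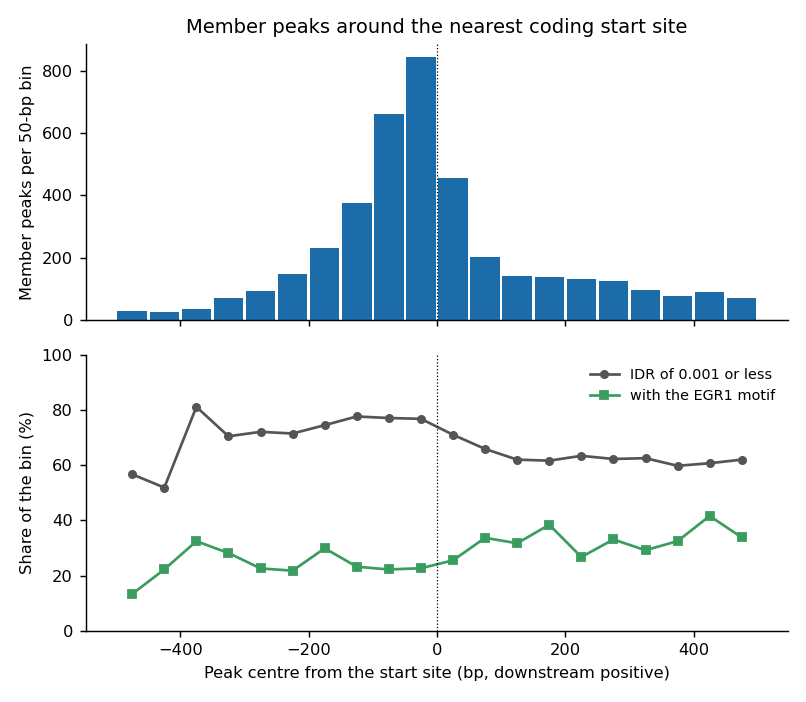
Number of CpG-rich single-gene promoter peaks per 50-bp bin of the distance from the nearest coding TSS (top; horizontal axis in bp, downstream positive), and the share of each bin with an IDR of 0.001 or less and with the EGR1 motif (bottom, %). The tallest bar, at −50 to 0 bp, holds 843 peaks, of which 76.7% had an IDR of 0.001 or less and 22.7% the motif.

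The motif had a slight preference for the strand of the gene. Of 974 peaks with a single motif, 558 (57.3%, 54.2% to 60.4%) had it on the strand of the gene (exact binomial test, two-sided, p = 6.03e-06), with 55.6% upstream and 59.3% downstream. Peak-free promoters with a single motif had it in 108 of 199 cases (54.3%). The difference from these was 3.02 percentage points (−4.44 to 10.6), so a preference of bound over unbound motifs for a strand was not shown.

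Words of 12 other promoter factors were compared between the peaks and the peak-free promoters. The windows were centred on the peak in the former and on the TSS in the latter. The part of this placement in the differences was not tested, so a lower share is not shown to be a depletion at bound promoters. The SP/KLF word GGGGCGGGG was in 29.3% of peaks and 19.5% of peak-free promoters, a difference of 9.77 percentage points (8.05 to 11.5), and 22.9% of its 1524 sites in the peaks overlapped an EGR1 motif. The ETS word CCGGAAGT was in 5.19% and 7.36% (−2.17, −3.11 to −1.20), and TATAAA, the TATA box, in 2.47% and 4.50% (−2.03, −2.73 to −1.31). Smaller differences were found for the CRE word TGACGTCA (−0.767, −1.42 to −0.0842), the YY1 word AAGATGGCG (−0.791, −1.44 to −0.121) and the ZBTB33 word TCTCGCGAG (0.462, 0.0208 to 0.943). The intervals included 0 for the NRF1 word GCGCATGCG, the NFY word GCCAAT, the E-box CACGTG, the AP-1 word TGACTCA, the CArG box of SRF and the MEF2 word. Within the peaks, the NFY word was in 20.0% of the 1011 peaks with the lowest IDR and 10.2% of the 1011 with the highest (difference 9.79 percentage points, 6.70 to 12.9). The SP/KLF word was in 33.6% and 26.4% of these peaks (7.22, 3.23 to 11.18), and the ETS word in 6.73% and 3.86% (2.87, 0.918 to 4.86). The E-box (3.07, 0.5504 to 5.60), the NRF1 word (1.78, 0.271 to 3.35) and the CRE word (1.58, 0.117 to 3.10) were also more frequent at the lowest IDRs. The intervals included 0 for the AP-1 word (−0.396, −1.73 to 0.915) and the CArG box (0.495, −0.436 to 1.48), and for the YY1, ZBTB33, TATA and MEF2 words. No interval was adjusted for the 12 words compared. Position moved with IDR as well. From the lowest to the highest of the 10 IDR sets, the median distance from the TSS was 62.25 and 108.5 bp. The share upstream was 72.5% and 53.3%, and the part of position in these differences was not tested.

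The genes at these promoters were described by lists of related genes, each read against all 10705 eligible genes, of which 34.0% had one of the peaks. Any EGR1 peak within 2 kb of a TSS was found at 43.8% of them. Genes that respond to neuronal activity were bound often. Of 29 eligible immediate-early transcription factors, 16 had a peak (55.2%, 37.5% to 71.6%), and of 23 activity-induced effectors 15 had one (65.2%, 44.9% to 81.2%). The lowest IDRs among the factors were at Jund (6.53e-09), Klf10 (3.15e-08), Btg1 (7.57e-08) and Maff (1.37e-07), and the highest at Atf3 (0.0187). Klf10 is a zinc-finger factor, Btg1 a regulator of cell growth and Maff a small bZIP factor. Junb, Nr4a1, Klf2, Klf4, Klf6, Btg2, Egr3, Egr4, Myc, Csrnp1 and Nab1 were the other eligible factors with a peak, Nab1 being a corepressor that binds EGR proteins. Fos, Egr1, Egr2 and Jun had none under this rule, but any EGR1 peak within 2 kb was present at 24 of the 29 factors (82.8%), among them Egr1, Egr2 and Jun but not Fos. Among the eligible effectors, the lowest IDRs were at Nptx1 (5.25e-08), a secreted protein of excitatory synapses, Cdkn1a (2.19e-07), an inhibitor of cyclin-dependent kinases, Homer1 (2.38e-07), a scaffold of metabotropic glutamate receptors, and Arc (2.63e-07). Bdnf and Vgf had an EGR1 peak within 2 kb but none that met the rule. The exact motif was at 2 of the 15 bound effectors, Nptx1 and Cpeb3, and at 950 of all 3635 bound eligible genes.

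The MAP kinase cascade carries the signal from synapses to the genes above. Of 31 eligible members of the cascade, 17 had a peak (54.8%, 37.8% to 70.8%), among them the adaptor Grb2 (8.36e-08), the kinase Braf (0.00105), the MAP kinase kinases Map2k1 (5.61e-08) and Map2k4 (5.66e-08), the kinase Mapk3 (5.41e-06) and the downstream kinase Rps6ka2 (9.91e-08). Of 15 eligible feedback inhibitors, 3 had one (20.0%, 7.05% to 45.2%), the phosphatases Dusp2 (5.34e-07) and Dusp7 (2.45e-05) and the inhibitor Spry1 (0.000328), while any EGR1 peak within 2 kb was found at 9 of these 15 (60%) and at 19 of the 31 cascade genes (61.3%). The intervals of these shares overlap, and the difference between the lists was not tested.

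**Figure D5:**
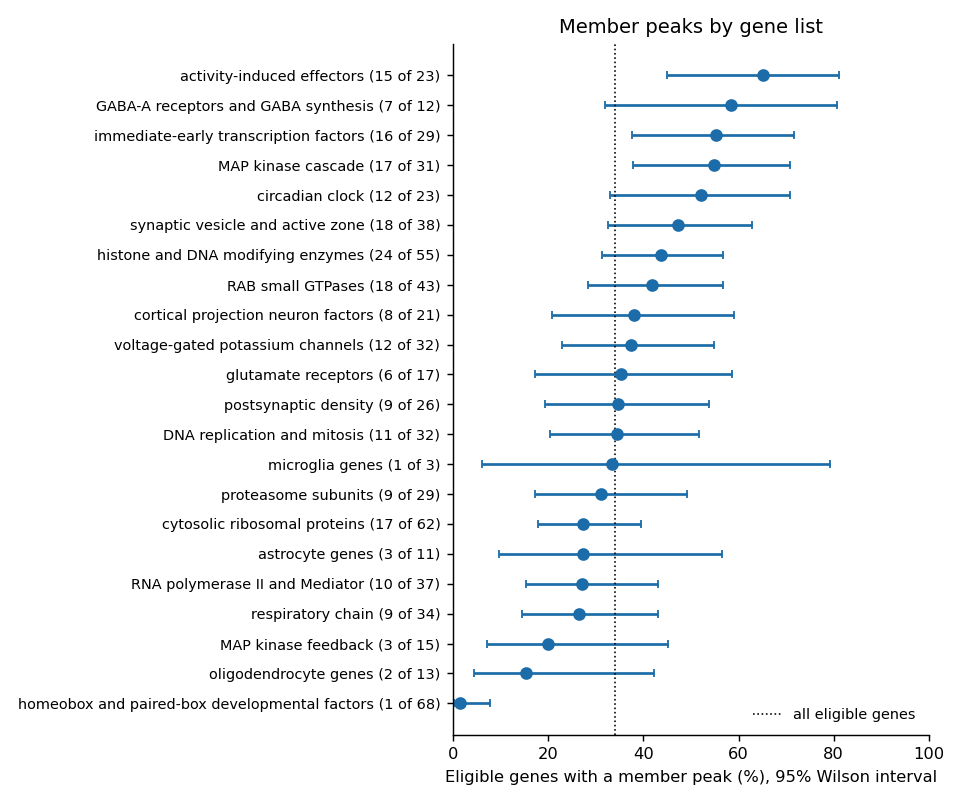
Share of eligible genes with an EGR1 peak at a CpG-rich single-gene promoter (horizontal axis, %) for each gene list, with 95% Wilson intervals and the number bound of the number eligible. The dotted line marks the 34.0% of all eligible genes; activity-induced effectors lie highest at 65.2% and homeobox and paired-box factors lowest at 1.47%.

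Genes of both sides of the synapse were among those with a peak, at shares not shown to differ from that of all eligible genes. Of 38 eligible genes of synaptic vesicles and the active zone, 18 had a peak (47.4%, 32.5% to 62.7%). They included Syn2 (8.77e-09), which tethers vesicles, Rims1 (6.09e-08), an organiser of the active zone, Cplx1 (6.76e-08), which clamps SNARE complexes, Unc13a (4.69e-07), which primes vesicles, and Syp (2.29e-06), an integral vesicle protein. Of 26 eligible postsynaptic genes 9 had one (34.6%, 19.4% to 53.8%), with the lowest IDRs at Baiap2 (1.75e-08), Iqsec1 (1.44e-07) and Camk2b (2.32e-07). Of 17 eligible glutamate receptor genes 6 had one (35.3%, 17.3% to 58.7%), namely Grin1 (4.36e-09), Grin2a (5.65e-07), Gria2 (1.71e-05), Grik3 (8.81e-05), Gria3 (0.00581) and Grm4 (0.0150). Of 12 eligible genes of GABA signalling 7 had one (58.3%, 32.0% to 80.7%), among them Gphn (3.94e-08), the scaffold of inhibitory synapses, Gabrg3 (8.73e-08), Gabbr1 (1.93e-07) and Gad1 (0.0033), which makes GABA. Of 32 eligible voltage-gated potassium channel genes 12 had one (37.5%, 22.9% to 54.7%), with the lowest IDRs at Kcns2 (6.01e-08), Kcnd3 (1.46e-07) and Kcna1 (1.73e-07). All 5 intervals included the 34.0% of all eligible genes. Any EGR1 peak within 2 kb was found at 60.5% of the vesicle and active zone genes and 65.4% of the postsynaptic genes. For glutamate receptors, GABA signalling and potassium channels it was 58.8%, 66.7% and 62.5%. The share of all eligible genes was 43.8%, and these differences were not tested.

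Lists of basic cell machinery were bound at shares near or below that of all eligible genes. The counts were 9 of 29 for proteasome subunits (31.03%), 17 of 62 for cytosolic ribosomal proteins (27.4%), 9 of 34 for the respiratory chain (26.5%), 10 of 37 for RNA polymerase II and Mediator (27.0%) and 11 of 32 for DNA replication and mitosis (34.4%), all with intervals that included 34.0%. Single peaks of these lists still had low IDRs, such as 1.63e-08 at Rpl27a, 5.52e-08 at Rps7, 2.83e-08 at Ccnb1 and 3.96e-08 at Med14. Of 43 eligible RAB GTPases, which direct vesicle traffic, 18 had a peak (41.9%, 28.4% to 56.7%). Of 55 histone and DNA modifying enzymes, 24 had one (43.6%, 31.4% to 56.7%), with the lowest IDRs at the demethylase Kdm3a (1.83e-08), the acetyltransferase Kat7 (2.34e-08) and the methyl-CpG binding protein Mbd2 (3.75e-08). Tet2 (2.8e-07), which oxidises methylated cytosine, was among the enzymes with a peak, while Tet3 and Dnmt3a had an EGR1 peak within 2 kb but none that met the rule. Of 23 circadian clock genes, 12 had a peak (52.2%, 32.96% to 70.8%), with the lowest IDRs at Per1 (2.28e-08), a repressor of the clock, Tef (2.15e-07) and Arntl (2.53e-07), which encodes BMAL1. The intervals of the RAB, enzyme and clock lists included 34.0% as well.

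Homeobox and paired-box genes were almost never bound. Of 68 eligible genes of this list, which pattern the embryo from CpG-rich promoters, Pax6 alone had a peak (1.47%, 0.260% to 7.87%), with an IDR of 0.00166. Any EGR1 peak within 2 kb was found at 3 genes of the list (4.41%), Pax6, Hoxb3 and Nkx6-1. Many of these genes lie in clusters, so they are not independent. The cortical projection neuron factors, some of which are homeobox genes too, had a peak in 8 of 21 cases (38.1%, 20.8% to 59.1%), among them Pou3f2 (1.61e-07) and Neurod1 (4.76e-07). Of the markers of other cortical cell types, 2 of 13 eligible oligodendrocyte genes (15.4%, 4.33% to 42.2%; Cnp and Cldn11), 3 of 11 astrocyte genes (27.3%; Slc1a2, Gli3 and Hes5) and 1 of 3 microglia genes (Irf8) had a peak. Only 3 of the 20 microglia markers were eligible.

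The share of bound promoters was lower on chromosome X than on the autosomes. The mice were male, so X and Y were each present in a single copy, and the part of this in the shares was not tested. It was 34.7% of 10299 autosomal genes and 17.7% of 373 X-linked genes (14.2% to 21.9%), a difference of 17.0 percentage points (12.7 to 20.6). Every autosome lay above X, from 29.2% on chromosome 6 to 43.0% on chromosome 15. None of the 33 eligible genes on Y had a peak, which allows a share of up to 9.09%. The 71 peaks on X had an IDR of 0.001 or less in 74.6% of cases, compared with 71.6% on the autosomes (difference for autosomes −3.04 percentage points, −11.8 to 8.25), and the motif in 38.03%, compared with 26.1% (−11.98, −23.7 to −1.48). They included Med14 (3.96e-08) and the vesicle proteins Syp (2.29e-06) and Syn1 (1.29e-05).

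Some genes had several peaks. More than 1 of the peaks was assigned to 286 genes (7.59% of 3769), and 11 genes had 3. Per1 had peaks with IDRs of 1.6e-07, 4.89e-07 and 2.28e-08, and Camta1, a calmodulin-binding transcription factor, with 3.49e-07, 3.07e-07 and 7.64e-08. Hnrnpl, Klf13 and Slc12a5, the neuronal potassium-chloride transporter, also had 3. Internal start sites over 1 kb inside the first coding TSS accounted for 457 peaks (11.3%). Of these, 63.9% had an IDR of 0.001 or less, compared with 72.7% at the first start sites (difference −8.76 percentage points, −13.5 to −4.24), and 29.8% had the motif, compared with 25.8% (3.94, −0.322 to 8.51). The lowest IDR among them was at Dhcr7 (7.4e-09), the last enzyme of cholesterol synthesis, 6873 bp inside the gene. Eligible genes with a peak were longer than peak-free ones, with a median of 31.9 kb compared with 25.8 kb, and 36.1% and 30.4% of them were longer than 50 kb (difference 5.67 percentage points, 3.73 to 7.62). Single-gene promoters can still have noncoding transcripts on the other strand within 1 kb, which was so for 14.3% of the peaks and 11.98% of peak-free promoters (2.34, 0.997 to 3.71).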

How the data were processed

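EGR1 ChIP-seq was performed on mouse frontal cortex, and input DNA was the other sample. According to the methods of the study, quality-trimmed reads were aligned with Bowtie (build mm10), SPP was used for peak calling per replicate, and peaks at an IDR of 2% or less were retained. The submitters' processing notes also name cutadapt 11.2, Bowtie2 2.2.9 and bedtools 2.26.0. The values deposited by the authors are peak positions and an IDR, which is read like a q-value and is no p-value of a test made here. Reads of F1 hybrid mice were mapped to the reference, and sequences printed are those of the reference. Interval starts were taken as counted from 0, although the counting is not given in the sources used here, and are reported counted from 1. The sequence was that of GRCm38.p6, the assembly behind mm10, and genes were those of GENCODE M21; 76 peaks on scaffolds were not used.

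CpG ratios used the whole interval, and words were searched on both strands in 250 bp around the centre. Peak-free promoters were centred on the TSS with the most transcripts. Shares have 95% Wilson intervals and differences 95% Newcombe intervals, with no p, and exact McNemar and binomial tests were used where named. Named genes were those with the lowest IDR overall (12) and in each list (3), those with the most motifs, those of ChIP-qPCR amplicons and those nearest the limits; other list genes and the whole peaks shown were chosen after their values were seen. Some genes and a sequence that this rule names are not reported here. The peak rule, lists and words were chosen with earlier results of these data known, so no count is independent support. Alternatives for the IDR, annotation, distance, CpG limit, motif and windows were run. Python 3.11.15, NumPy 2.4.6, pandas 2.3.3, SciPy 1.17.1 and matplotlib 3.10.9 were used, and the code was tested on simulated data.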

Additional observations from a re-analysis of the deposited data

How the results depend on the processing

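No paired analysis was possible because the list merges both replicates, and for the same reason no replicate could be left out. Under 140 alternatives, 128 values kept their direction and their side of the limit or moved by less than their interval. The motif share of the peaks was 30.6% with peaks of an IDR of 0.001 or less, 28.2% at a CpG ratio of 0.75 or more, 31.1% with any base at the fourth position of the motif, 5.66% with GCGTGGGCG alone and 23.8% in windows of 150 bp. The share of eligible genes with a peak was 25.02% with peaks of an IDR of 0.001 or less, 29.5% within 250 bp, 30.4% at a CpG ratio of 0.75 or more and 35.4% when eligibility was judged on 500 bp. The difference in motif share from bidirectional promoters was −0.0973 percentage points with GCGTGGGCG alone. In windows of 150 bp, the ZBTB33 difference was 0.340 percentage points, with an interval that included 0, and the NRF1 difference was −0.671, with one that did not. The cause of these changes was not tested. The difference in motif share from peak-free promoters stayed between 5.26 and 26.8 percentage points, and the upstream share between 60.9% and 68.0%. None of these alternatives centred the windows of the peaks on the TSS. Counts with both centred on the TSS, 577 of 3635 genes and 226 of 6020 promoters, gave a difference smaller than 22.5 percentage points. Moving the centres (63.4% upstream) and keeping peaks with a single-copy middle (motif in 26.3%) were chosen after seeing the data. Without read counts, depth sets an unknown limit on which promoters could be called.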
